A study of Homo sapiens with 2 samples.

Results

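The genes of the BCL2 family that keep cells alive or kill them through the mitochondrion were followed in NK92 cells, a human natural killer cell line, after exposure to PPMX-T003, an antibody against transferrin receptor 1, the protein that brings iron-loaded transferrin into the cell. The members were the 10 rows of the deposited gene table, of 46427 in all, whose symbol was BCL2, BCL2L1, BCL2L2, MCL1, BCL2A1, BAX, BAK1, BCL2L11, BBC3 or PMAIP1. The row BCL2L2-PABPN1, a readthrough transcript that runs from BCL2L2 into the next gene, was read beside them.

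Cells of 1 culture in medium with human serum were kept for 18 h and divided over 2 plates, one of which received 10 µg/mL PPMX-T003 for 6 h while the other received nothing. The labels and the paper's methods give the control the same further 6 h in culture, but its deposited column is named for 0 h. If that name gives the time of harvest, the antibody and hours in culture cannot be told apart, and this is not settled here. PolyA RNA of each plate gave 1 stranded library, with 46766416 counts in the control and 43178462 in the exposed library, over 17690 and 17650 genes with a count. With 1 library per condition no difference has a replicate check and no p-value is given. Beside each log2 change (exposed over control, scaled counts) stands a 95% counting interval, which covers counting error only and compares these libraries, not the conditions.

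Proteins of the BCL2 family meet at the outer mitochondrial membrane. The effectors BAX and BAK1 can open it and release cytochrome c, the survival proteins bind them and hold them shut, and BH3-only proteins, which share a single short domain with the rest, occupy the survival proteins or engage the effectors. Natural killer cells are known for their need of MCL1, which cytokines of the IL-2 family help to maintain.

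The label of the cells was checked against marker genes. All 13 natural killer markers were detected, with a summed level of 7534 TPM (transcript abundance scaled for length and depth) in the control and 8148 after PPMX-T003, and NKG7 as the most abundant at 3215 and 3445 TPM. The counting interval lay above 0 for 8 of them and below 0 for 3, against 25.7% and 28.6% of genes with at least 200 counts. NCR1, among these 3, changed by -0.21 (-0.31 to -0.11), and GZMB, among the 8, by 0.27 (0.25 to 0.29). The median log2 change of the 13 was 0.11, and 0.06 with a fit on GC content and length removed, described further on. Of the T cell markers, CD3D, CD3G, CD8A and CD8B had no count in either library and CD4 had 4 and 0, while CD3E stood at 673 and 698 TPM and TRAC at 75 and 69. The 5 B cell markers summed to 2 and 1 TPM, the 5 erythroid markers had no count, and the 6 fibroblast and epithelial markers summed to 0 TPM. Of the 6 myeloid markers, S100A9 had 393 and 388 TPM of a sum of 415 and 405, with LYZ at 2 and 0 counts. S100A8 had 176 and 126 counts, a log2 change of -0.36 (-0.71 to -0.03). The B cell marker PAX5 had 169 and 78 counts, a change of -0.98 (-1.40 to -0.60). In RNA from a whole culture, fewer cells of a kind and less RNA per cell cannot be told apart.

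The order of the members by TPM, which the authors rounded to whole numbers, was the same in both libraries, which it was not by counts per kilobase of the longest transcript. MCL1 came first (BAX did by counts per kilobase of the median transcript, which for BAX is short at 499 bases), followed by BCL2L1, BAK1, BAX, PMAIP1, BCL2, BCL2L2, BCL2L11, BCL2A1 and BBC3. Neighbours were close at the middle of that order: BAK1 had 117 and 129 TPM and BAX 110 and 125. The 5 survival genes summed to 422 TPM in the control and 403 after PPMX-T003, the 2 effectors to 227 and 254, and the 3 BH3-only genes to 103 and 83. MCL1 alone made up 48.1% of the survival sum in each library, and PMAIP1 made up 92.2% and 90.4% of the BH3-only sum.

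**Figure D1:**
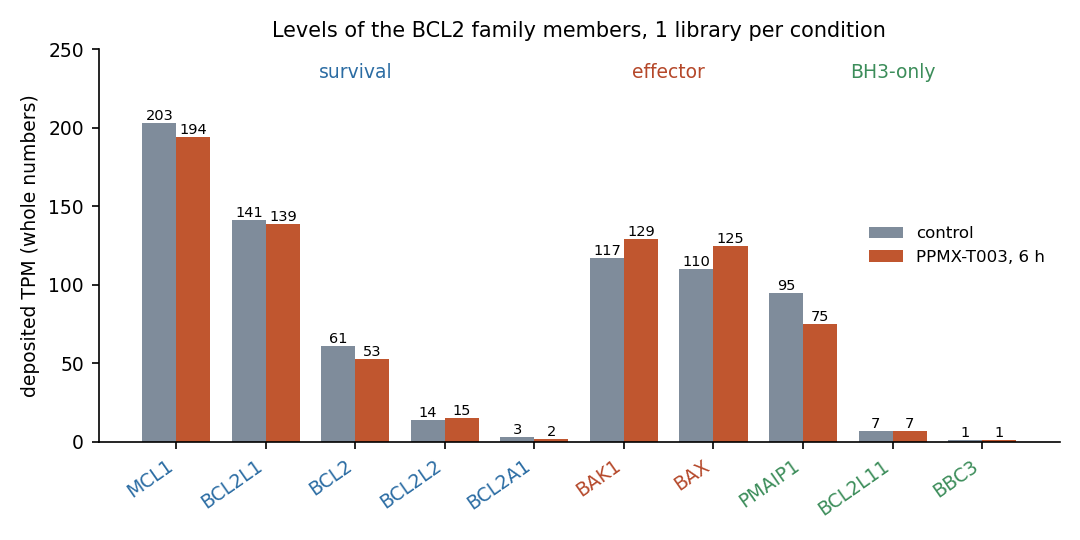
Deposited TPM (vertical axis) of the 10 members in the control (grey) and the PPMX-T003 library (orange), grouped by role, 1 library each and therefore no error bars. MCL1 is highest at 203 and 194 TPM, and BBC3 lowest at 1 and 1.

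All 10 members had at least 20 counts over both libraries, the minimum for a gene to enter the comparison, and 8 had at least 200 counts. None reached 2-fold in either direction, up or down, after PPMX-T003, where 1.27% and 1.38% of the 13665 genes tested were, or 0.125% and 0.0768% of the 10419 genes with at least 200 counts. None was at least 1.2-fold higher (12.2% of genes tested, 5.71% of those with at least 200 counts), and 1 was at least 1.2-fold lower, PMAIP1 (12.4% and 7.1%). The counting interval lay above 0 for 2 members, BAX and BAK1 (21.8% and 25.7%), and below 0 for another 2, BCL2 and PMAIP1 (23.9% and 28.6%). These shares are near those of all genes. The median log2 change of the members was 0.05, against -0.00 over all genes tested. Among genes with at least 1000 counts, the log2 changes had an SD of 0.16, and the middle 95% of them ran from -0.33 to 0.27, so that each well-counted member lay inside the range that most genes of these 2 libraries filled.

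**Figure D2:**
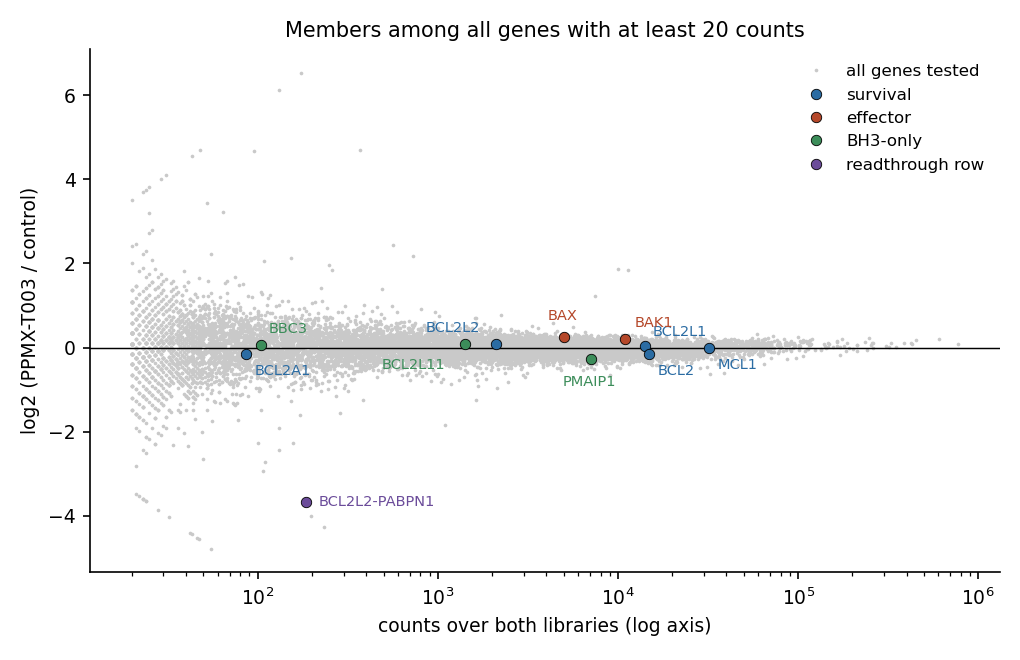
Log2 change (vertical axis) against counts over both libraries (horizontal log axis) of each gene with at least 20 counts (grey), with the members coloured by role. The members lie between -0.27 (PMAIP1) and 0.25 (BAX), and the readthrough row BCL2L2-PABPN1 at -3.66.

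Among the survival genes, MCL1, the short-lived protein that holds BAK1 and takes up PMAIP1, had 16689 counts in the control and 15248 in the exposed library, a log2 change of -0.01 (interval -0.04 to 0.02). BCL2L1, which encodes BCL-XL, had 7225 and 6824 counts, with a change of 0.03 (-0.01 to 0.08). Both levels were thus alike in the libraries, with bounds well inside 1.2-fold. BCL2, the founding member of the family, was lower, with 8146 and 6788 counts, 61 and 53 TPM, and a change of -0.15 (-0.19 to -0.10). Its interval held 0 in 1 of 3 fits that remove base composition, described further on. BCL2L2, which encodes BCL-w, had 1070 and 1039 counts and a change of 0.07 (-0.05 to 0.20). BCL2A1, a survival gene switched on by NF-kB, had 47 and 39 counts, and its interval of -0.80 to 0.49 allowed no direction to be read at this depth.

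Both effectors had more scaled counts after PPMX-T003. In 3 fits that remove base composition and, in 2 of them, transcript length, described further on, the interval of BAK1 lay above 0 each time, and that of BAX in all but the fit with median lengths. BAX (chromosome 19, 48954875 to 48961798, GRCh38) had 2397 counts in the control and 2630 in the exposed library, 110 and 125 TPM, which made it 1.19-fold higher (log2 change 0.25, interval 0.17 to 0.33). BAK1 (chromosome 6, 33572552 to 33580276) had 5295 and 5592 counts, 117 and 129 TPM, and was 1.15-fold higher (0.20, interval 0.14 to 0.25). Of the genes with at least 200 counts, 93.5% had a lower change than BAX and 89.1% a lower change than BAK1. BAK1 shares sequence with BAK1P1, a processed copy whose 636 bases are 98.3% identical to BAK1. The copy was given 351 and 405 counts, and the sum of both rows changed by 0.20 (0.15 to 0.26).

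Of the BH3-only genes, PMAIP1 was the member that differed most. It encodes NOXA, which binds MCL1 and BCL2A1. PMAIP1 (chromosome 18, 59899996 to 59904305) had 4042 counts in the control and 3080 in the exposed library, 95 and 75 TPM, and was 1.21-fold lower (log2 change -0.27, interval -0.34 to -0.21). A lower change was found in 6.45% of genes with at least 200 counts. It fell short of 1.2-fold under upper-quartile scaling (-0.26) and in each of the 3 fits, at -0.19 and -0.21 with median and longest lengths and -0.15 (-0.22 to -0.08) with GC content alone, and its interval lay below 0 in all of these. BCL2L11, which encodes BIM, had 721 and 701 counts and a change of 0.08 (-0.08 to 0.23). BBC3, which encodes PUMA, a target of p53, had 53 and 51 counts, and its interval ran from -0.52 to 0.64. A difference of 1.2-fold could not have been told from none for BBC3 or BCL2A1 at this depth.

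The log2 changes of all genes ran along the base composition of their transcripts. Over genes with at least 200 counts, divided into 5 groups of like size by the GC content of their transcripts, the median log2 change was -0.12 in the group with the lowest GC content, then -0.05, -0.01, 0.06 and 0.11. PMAIP1, with 37.2% GC, belonged to the lowest group. BCL2, with 43.9%, belonged to the next, together with MCL1 and BCL2L11, whose changes were -0.01 and 0.08. BCL2L1 and BCL2L2, at 0.03 and 0.07, belonged to the group below the highest, and BAK1, with 58.8%, and BAX, with 60.6%, to the highest. A linear fit of log2 change on GC content and log2 transcript length over 10126 genes was therefore removed from each gene. PMAIP1 then stood at -0.19 (-0.26 to -0.12) and BAK1 at 0.11 (0.06 to 0.16), and their intervals still excluded 0. BCL2 stood at -0.03 (-0.08 to 0.01) and BAX at 0.05 (-0.03 to 0.13), and theirs held 0. For BAX the outcome turned on which transcript length was used. The median length of its transcripts was 499 bases and the longest 1358, whereas its count and its FPKM in the control, a count per length and depth, imply 1.11 kb. With the longest transcript of every gene, BAX stood at 0.12 (0.04 to 0.20) and BCL2 at -0.05 (-0.10 to -0.00). With GC content alone in the fit they stood at 0.15 (0.07 to 0.23) and -0.09 (-0.13 to -0.04), so that their intervals excluded 0 in both of these fits, which were added after seeing the data. After removal of the fit with median lengths the interval of MCL1 lay above 0, at 0.05 (0.02 to 0.08), as did that of BCL2L11, at 0.16 (0.01 to 0.31). That of MCL1 lay above 0 in the other fits too, whereas that of BCL2L11 held 0 in them.

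**Figure D3:**
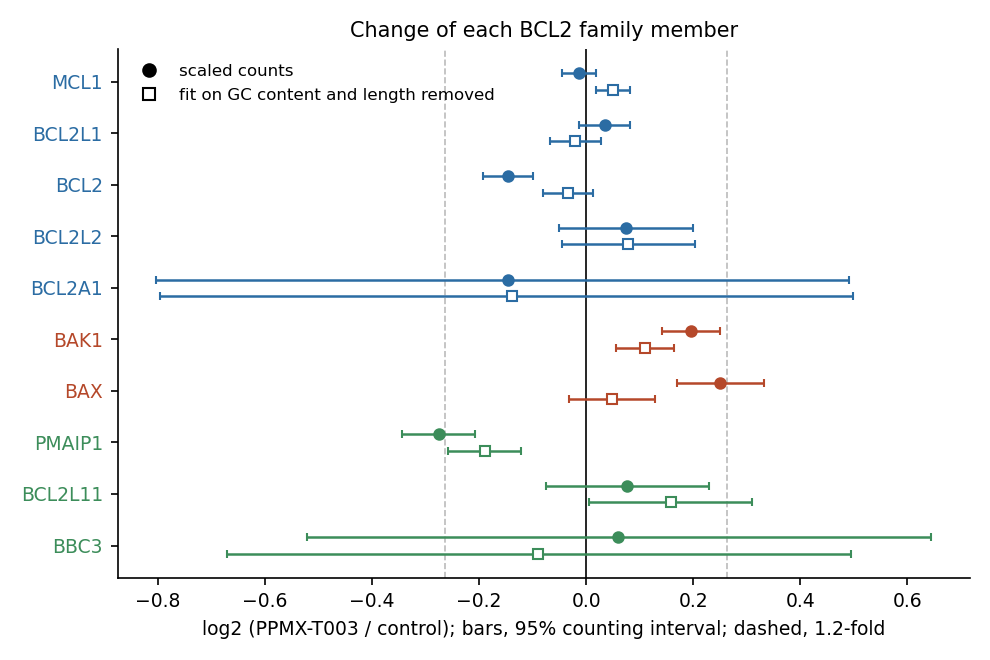
Log2 change of each member (horizontal axis) with its 95% counting interval, from scaled counts (filled circles) and after removal of the fit on GC content and length (open squares), coloured by role, with dashed lines at 1.2-fold. PMAIP1 lies left of 0 and BAK1 right of 0 in both, whereas BAX moves from 0.25 to 0.05 and BCL2 from -0.15 to -0.03.

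Ratios of counts within each library do not depend on the scaling, and 6 were taken, 5 between members and 1 of BCL2L2-PABPN1 to BCL2L2, each also with the fit on GC content and length removed, a step added after seeing the data. BAX counts per BCL2 count were 0.294 in the control and 0.387 after PPMX-T003, a log2 change of 0.40 (0.30 to 0.49), which was 0.08 (-0.01 to 0.18) with the fit removed, 0.17 (0.08 to 0.26) with the longest transcripts in it, and 0.23 (0.14 to 0.33) with GC content alone. PMAIP1 per MCL1, a pair of binding partners, went from 0.242 to 0.202, a change of -0.26 (-0.34 to -0.19), or -0.24 (-0.32 to -0.16) with the fit removed and -0.19 (-0.26 to -0.11) with GC content alone. BCL2L1 per BCL2 went from 0.887 to 1.01, a change of 0.18 (0.11 to 0.25), or 0.01 (-0.05 to 0.08) with the fit removed and 0.06 (-0.01 to 0.12) with GC content alone. PMAIP1 was thus lower relative to MCL1 with and without each fit, BCL2L1 was higher relative to BCL2 without a fit and had 0 inside its interval with each, and the size of the BAX to BCL2 change turned on the fit. The ratio of BCL2L11 to MCL1 changed by 0.09 (-0.07 to 0.25) and that of BCL2A1 to MCL1 by -0.14 (-0.79 to 0.51), both with 0 inside the interval.

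The upstream regions of the members at either end of the changes in scaled counts, before any fit, are shown with the short motifs they hold. RefSeq windows of 300 bases, mostly upstream of a start of transcription, matched 8 of the 10 members (GRCh38.p14), leaving MCL1 and BCL2L2 unmatched. BCL2L1 matched more than a single window, and a motif in any of them was counted. The window of BCL2, and a window of BCL2L1, lay wholly inside the span of the gene. In the window of BAX (chr19:48954625-48954924, plus strand), capitals mark the E-box CACGTG, the motif that MYC and related factors bind. In that of PMAIP1 (chr18:59899746-59900045, plus strand), they mark the GC box GGGCGG on either strand, the motif of SP1.
BAX: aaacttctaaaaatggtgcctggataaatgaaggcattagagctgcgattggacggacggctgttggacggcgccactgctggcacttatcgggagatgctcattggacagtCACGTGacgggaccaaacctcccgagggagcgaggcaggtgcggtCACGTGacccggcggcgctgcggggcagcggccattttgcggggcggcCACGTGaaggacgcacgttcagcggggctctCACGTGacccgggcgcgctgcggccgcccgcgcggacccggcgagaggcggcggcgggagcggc
PMAIP1: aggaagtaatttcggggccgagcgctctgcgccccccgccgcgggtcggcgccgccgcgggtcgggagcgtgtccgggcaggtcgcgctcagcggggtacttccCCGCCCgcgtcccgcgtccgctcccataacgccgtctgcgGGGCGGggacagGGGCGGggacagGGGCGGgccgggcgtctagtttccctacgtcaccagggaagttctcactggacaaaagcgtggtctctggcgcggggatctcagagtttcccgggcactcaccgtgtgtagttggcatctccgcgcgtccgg
The BAX window held 4 E-boxes. At least 1 was found in 7.26% of all 35114 windows, and 4 or more in 5 windows (0.0142%); of the members, BAX and BBC3 had 1 or more. The PMAIP1 window held 4 GC boxes. Of all windows, 9.06% held 4 or more and 45.0% at least 1, among them BAK1, BAX, BCL2L1, BCL2L11 and PMAIP1. The letters TGACG, the core of a cyclic AMP response element, were in 24.6% of windows and in those of BAX, BCL2, BCL2L1 and PMAIP1; in BAX they overlap an E-box. The STAT motif TTCNNNGAA was in 7.66% of windows and, of the members, in that of BCL2A1. A p53 half-site was in 6.63% and, of the members, in that of BAK1. Both strands were searched. A match is a description of the letters, and binding was not measured.

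The row beside BCL2L2 changed far more than any member. BCL2L2-PABPN1 joins the start of BCL2L2 to PABPN1, the gene for a nuclear poly(A)-binding protein that lies next to it on chromosome 14, so its exons are nearly all shared with one gene or the other. The joins that set the 3 transcripts apart are given as 30 bases on each side (GRCh38, plus strand), with the exon after the join in capitals. BCL2L2 is shown from exon 3 (ending at 23308199) into exon 4 (starting at 23308816), PABPN1 from exon 1 (ending at 23321820) into exon 2 (starting at 23322181), and BCL2L2-PABPN1 from exon 3 (ending at 23308199) into exon 4 (starting at 23322181).
BCL2L2: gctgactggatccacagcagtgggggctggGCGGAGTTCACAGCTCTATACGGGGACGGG
PABPN1: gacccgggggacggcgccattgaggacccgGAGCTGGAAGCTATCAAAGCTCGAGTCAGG
BCL2L2-PABPN1: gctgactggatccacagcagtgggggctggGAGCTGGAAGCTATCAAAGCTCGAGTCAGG
The readthrough has its left side in common with BCL2L2 and its right side in common with PABPN1, and skips 13981 bases between them. BCL2L2 exons cover 52.5% of its exon bases and PABPN1 exons 42.2%, so that most reads from it could fit another row as well. How the counting divided such reads is not given in the sources used here.

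The readthrough row had 175 counts in the control and 11 after PPMX-T003, 4 and 0 TPM, a log2 change of -3.66 (-4.90 to -3.0). Its count per BCL2L2 count went from 0.164 to 0.0106, a change of -3.95 (-4.99 to -3.06). PABPN1 had 10132 and 10724 counts and a change of 0.20 (0.16 to 0.24). The 3 rows of the locus together had 11377 and 11774 counts, a change of 0.17 (0.13 to 0.20), and the readthrough held 1.54% of them in the control and 0.0934% after PPMX-T003. Where readthrough counts were added to BCL2L2, the sum went from 1245 to 1050, a change of -0.13 (-0.25 to -0.01), against 0.07 for BCL2L2 alone. The interval of BCL2L2 thus held 0 alone and lay below 0 with the readthrough counts added. Of the 11293 genes with at least 100 counts, 2 had a lower change than BCL2L2-PABPN1. These were FAM47E-STBD1 at -4.26 and ARHGAP11A-SCG5 at -4.00, both also rows named after 2 genes.

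**Figure D4:**
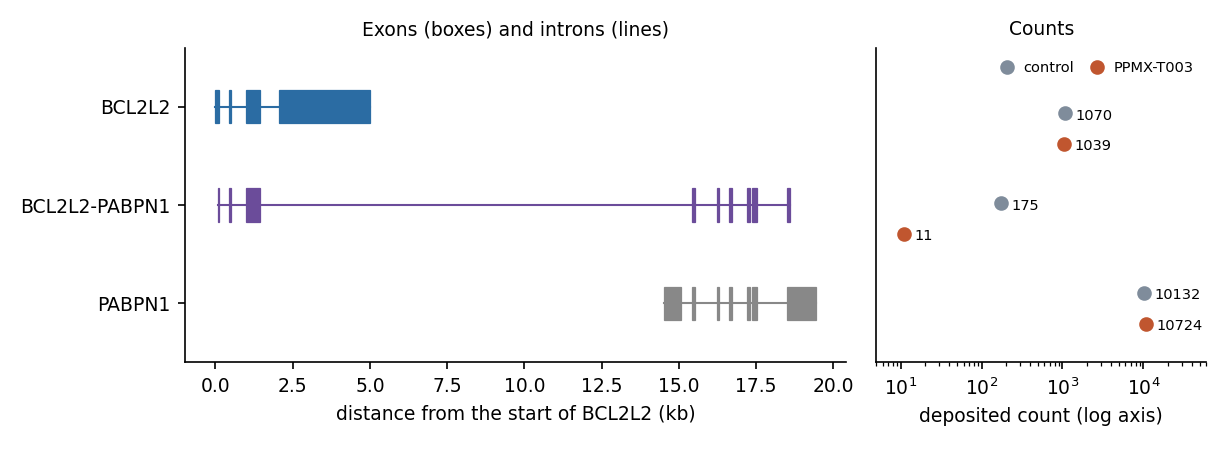
Left, exons (boxes) and introns (lines) of BCL2L2, BCL2L2-PABPN1 and PABPN1 by distance in kb from the start of BCL2L2. Right, their deposited counts on a log axis in the control (grey) and after PPMX-T003 (orange), where the readthrough drops from 175 to 11 while BCL2L2 has 1070 and 1039 and PABPN1 10132 and 10724.

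Other rows of this kind also differed widely between the libraries. After the value of BCL2L2-PABPN1 had been seen, all 157 rows named after 2 other genes of the table were collected, of which 103 had at least 20 counts. Of these, 14 (13.6%) had gained 2-fold or more and 12 (11.7%) had lost as much, including BCL2L2-PABPN1, against 1.27% and 1.38% of all genes tested. Their median log2 change was 0.03. COMMD3-BMI1 had 13 and 359 counts and FAM47E-STBD1 225 and 9, so that shifts of the size seen at BCL2L2 occurred in both directions. Whether they arose in the cells or in the division of shared reads was not tested.

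The rest of the family was sparser. Of 13 other BCL2 family genes, BIK, BNIP3, BOK and HRK had no count in either library and BCL2L10 had 2 and 0. In this list and those that follow, counts of intervals stand against 21.8% above 0 and 23.9% below 0 over all genes tested, or 25.7% and 28.6% over genes with at least 200 counts, as most of the listed genes had. Of the 8 that could be compared, the interval lay above 0 for 2, below 0 for 1 and held 0 for 5, which is near or under those shares. BMF, a BH3-only gene, had 6185 and 4939 counts and was lower by a log2 change of -0.21 (-0.26 to -0.15), or -0.27 with the fit on GC content and length removed. BCL2L12 changed by 0.15 (0.06 to 0.25) and BAD, another BH3-only gene, by 0.14 (0.01 to 0.26). With the fit removed, these stood at 0.05 (-0.04 to 0.15) and -0.06 (-0.18 to 0.07). Of PMAIP1, BMF, BID, BCL2L11, BBC3 and BAD, BH3-only genes with enough counts, the interval lay below 0 for PMAIP1 and BMF. That of BNIP3L, a further gene of the list, held 0 (-0.16 to 0.26).

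Of the 15 genes of the apoptosome and caspase step, 2 had an interval above 0 (25.7% of genes with at least 200 counts), 8 below 0 (28.6%) and 5 around 0. The median log2 change of these 15 was -0.05, and -0.01 with the fit removed. CASP6, an executioner caspase, was near the limit of detection with 23 and 7 counts (log2 change -1.37, interval -3.06 to -0.33). BIRC3 and BIRC2, which encode ubiquitin ligases of the inhibitor of apoptosis family, had 2873 and 2194 and 2673 and 2068 counts, changes of -0.27 (-0.35 to -0.19) and -0.25 (-0.34 to -0.17). Both transcripts are low in GC content, at 38.8% and 38.0%, and with the fit removed they stood at -0.14 and -0.13. Of 12 mitochondrial membrane partners compared, 5 had an interval above 0 and 3 below (25.7% and 28.6% of genes with at least 200 counts), with a median change of 0.02. FIS1, a fission factor, changed by 0.24 (0.14 to 0.33), the nucleotide carrier SLC25A6 by 0.12 (0.09 to 0.16) and OPA1, which shapes the inner membrane, by -0.11 (-0.16 to -0.07). With the fit removed, these were 0.08 (-0.01 to 0.17), -0.01 and 0.04. With GC content alone in the fit, FIS1 stood at 0.16 (0.06 to 0.25), so that whether its interval held 0 turned on the fit. The carrier SLC25A4 had no count.

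Genes for the turnover of MCL1 and BH3 proteins split 2 above, 4 below and 5 around 0 of 11 compared (25.7% and 28.6% of genes with at least 200 counts), with a median change of -0.00 and with TRIM17 at 1 and 0 counts. BAG3, a chaperone partner that binds MCL1, had 61 and 108 counts and was 1.89-fold higher (log2 change 0.92, interval 0.48 to 1.42). HUWE1, a ubiquitin ligase of MCL1, changed by -0.18 (-0.21 to -0.16), and USP9X, which removes ubiquitin from MCL1, by -0.17 (-0.22 to -0.13). With the fit removed, HUWE1 stood at -0.07 and USP9X at -0.01 (-0.05 to 0.04). With GC content alone in the fit, HUWE1 stood at -0.19 (-0.22 to -0.17) and USP9X at -0.09 (-0.14 to -0.04). The size of both changes thus turned on the fit.

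Transcription regulators of the family split 8 above, 5 below and 3 around 0 of 16 compared (25.7% and 28.6% of genes with at least 200 counts), with a median change of 0.04 and with TP73 at no count. FOXO1, which can switch on BCL2L11, had 73 and 119 counts and was 1.75-fold higher (0.80, interval 0.39 to 1.26). REL, an NF-kB subunit that drives BCL2A1 and BCL2L1, had 1424 and 1000 counts and a change of -0.39 (-0.51 to -0.28), or -0.25 with the fit removed. MYC had 14303 and 14942 counts and a change of 0.18 (0.15 to 0.21). Among the IL-2 family receptors and survival kinases, 7 had an interval above 0, 5 below and 3 around 0 of 15 (25.7% and 28.6% of genes with at least 200 counts), with a median change of 0.05. PIM2, a survival kinase that phosphorylates BAD, had 1824 and 2527 counts and was 1.5-fold higher (0.59, interval 0.50 to 0.68), a larger change than that of any member. GSK3B, which marks MCL1 for breakdown, had 4348 and 3296 counts and a change of -0.28 (-0.35 to -0.22). With the fit removed GSK3B stood at -0.19, or -0.16 with the longest transcripts and -0.22 with GC content alone. IL2RB, the shared receptor chain for IL-2 and IL-15, had 669 and 696 TPM and a change of 0.11 (0.09 to 0.13). With the fit removed IL2RB stood at 0.08, or 0.07 with the longest transcripts and 0.04 (0.02 to 0.05) with GC content alone.

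**Figure D5:**
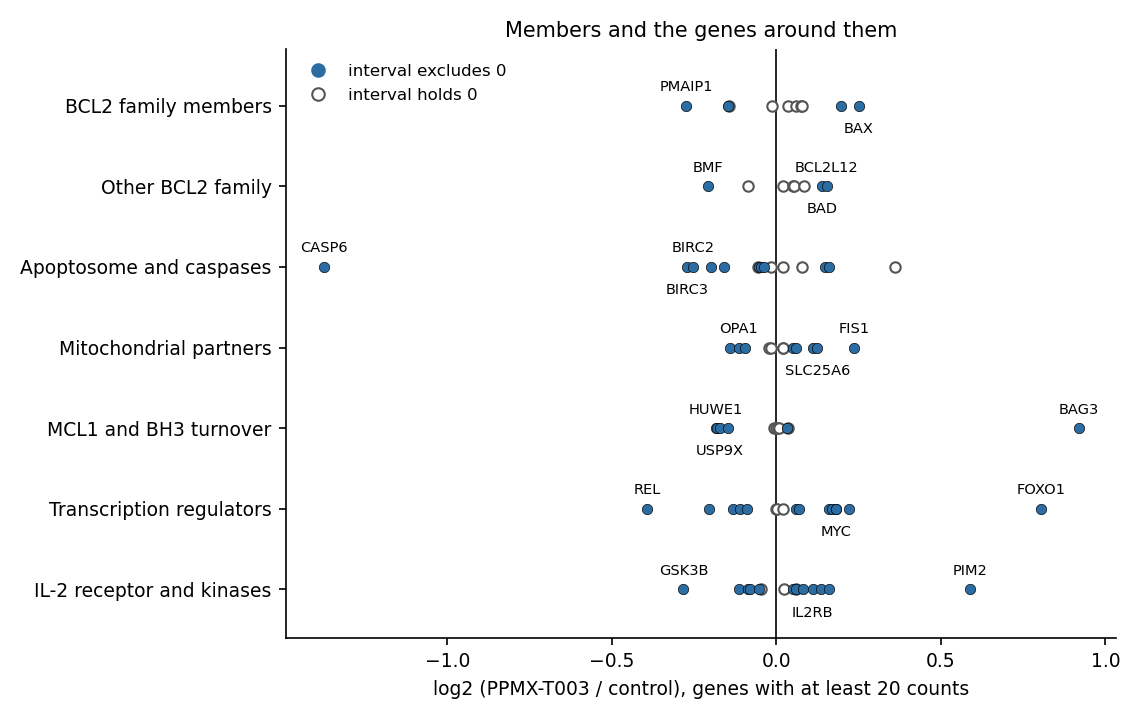
Log2 change (horizontal axis) of the members and of the genes of 6 further lists with at least 20 counts, 1 point per gene, filled where the 95% counting interval excludes 0. The members span -0.27 to 0.25, while CASP6 lies at -1.37, BAG3 at 0.92, FOXO1 at 0.80 and PIM2 at 0.59.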

How the data were processed

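Per the labels and their processing notes, the authors trimmed reads with Trimmomatic 0.38, aligned them to hg38 with HISAT2 2.2.0, assembled and counted with StringTie 2.1.3b and used edgeR 3.17. They deposited a read count, FPKM and TPM per gene and library. Deposited FPKM and TPM are scores here, since the authors rounded them to whole numbers. Use of strand in the counting is not given in the sources used here. Counts, written with commas inside the numbers, were scaled by the trimmed mean of M-values in Python 3.11.15 (numpy 2.4.6, scipy 1.17.1; factors 1.00), with a prior count of 2 and a minimum of 20 counts over both libraries. Intervals are Clopper-Pearson limits (95%) on the share of a gene's reads that came from the exposed library, turned into a log2 ratio. They were tried on simulated counts that varied by counting error alone, which says nothing of variation between cultures. Ratios between rows have the exact conditional interval of an odds ratio, which was not tried on simulated counts. A Huber fit (statsmodels 0.14.6) on GC content and length used GENCODE 29 transcripts, which covered 91.3% of genes tested and are not the annotation of the counts. A count of 3 equals 0.0641 and 0.0695 CPM. Named genes were the members, BCL2L2-PABPN1, PABPN1, genes with at most 3 counts and, per further list, the 3 whose interval lay farthest from 0. Members and lists were chosen with earlier results of these data known. Alternatives were other scalings, priors, minimums, TPM, base composition and summed rows.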

Additional observations from a re-analysis of the deposited data

How the results depend on the processing

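Scaling by median-of-ratios moved every log2 change by -0.01, by library size -0.00 and by the upper quartile 0.01, and the 10 members, BCL2L2-PABPN1 and PABPN1 kept their direction under each. The number of members at least 1.2-fold lower, 1 as reported, was 0 under upper-quartile scaling and 2 from deposited TPM with a pseudocount of 1. It was 0 with each fit removed, those with the longest transcripts or GC content alone chosen after seeing the data. The number of members with an interval below 0, 2 as reported, was 1 with the fit removed (PMAIP1), 2 with the longest transcripts or GC content alone (BCL2 and PMAIP1 in both) and 3 with BCL2L2 and BCL2L2-PABPN1 summed. The number with an interval above 0, also 2, was 3 under each fit. BAK1 and MCL1 were joined by BCL2L11 with median lengths and by BAX in the others. With the fit removed, the log2 change of the BAX to BCL2 ratio was 0.083, or 0.17 with the longest transcripts and 0.23 with GC content alone, against 0.40, and that of BCL2L1 to BCL2 was 0.014, or 0.017 and 0.058, against 0.18. PMAIP1 to MCL1 left its interval with GC content alone, at -0.19, and the other 3 ratios stayed inside theirs. The sum of BCL2L2 and BCL2L2-PABPN1 alone went to -0.13 against 0.17 for the locus of 3 rows, because PABPN1 holds most of the locus's counts. By counts per kilobase of the median transcript, 4 members changed rank in each library, with BAX first at 103 and 122 CPM per kilobase before MCL1 at 98.3 and 97.5. The median BAX length is 499 bases, against 1.11 kb implied by its FPKM. With the longest transcript, also chosen after seeing the data, 2 changed rank in each library. PMAIP1 (44.3) passed BAX (37.7) in the control and BAK1 (60.7) passed BCL2L1 (60.6) after PPMX-T003, so the order differed between libraries. No member was 2-fold changed under any alternative. Of 152 values of the 10 members, BCL2L2-PABPN1 and PABPN1, 128 stayed inside the reported interval and 24 left it. None of these 12 genes with an interval excluding 0 changed direction. BCL2, BCL2L1, MCL1 and BAK1 left theirs from TPM and in every fit. Of 270 values of the 21 other named genes, 215 stayed inside, 41 left it and 14 changed direction. The 128 and 215 include other minimums and summed rows, which cannot move most genes. With the fit on GC content and length removed, with the longest transcripts and with GC content alone, BAD went to -0.057, -0.059 and -0.015, SLC25A6 to -0.015, -0.022 and -0.019, OPA1 to 0.045, 0.030 and 0.00029, and BNIP2 to 0.029, 0.053 and 0.017. USP9X went to 0.0012 with the longest transcripts but kept its direction with GC content alone, at -0.091 (-0.137 to -0.044). BCLAF1 went to 0.083 from TPM. What lies behind these turns was not tested. Interval counts have no value from TPM. No paired analysis was possible with 1 library of each kind. Depth limits BCL2A1, with 47 and 39 counts, and BBC3, with 53 and 51.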

Other observations

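The genes named here were chosen after their values were seen. TFRC, the gene for the antibody's target, had 19063 counts in the control and 18223 after PPMX-T003, with 184 TPM in both libraries and a log2 change of 0.05 (interval 0.02 to 0.08), or 0.17 with the fit on GC content and length removed.

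RNAs on the opposite strand overlap some members. ABALON covers 43.0% of the exon bases of BCL2L1 and had 174 and 148 counts, against 7225 and 6824 for BCL2L1. MIR4435-2HG covers 10.9% of the exon bases of BCL2L11 and had 3268 and 2815 counts, more than the 721 and 701 of BCL2L11 itself. Without a statement that counting used strand, reads over these stretches cannot be told apart.

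BCLAF1 and BNIP2, whose proteins bind BCL2 relatives, were lower in counts. BCLAF1 had 12053 and 9903 counts, a log2 change of -0.17 (-0.20 to -0.13), and BNIP2 had 6425 and 5563, a change of -0.09 (-0.14 to -0.04). Their transcripts hold 37.4% and 39.0% GC, and with the fit on GC content and length removed the changes were -0.01 and 0.03. With GC content alone in the fit, BCLAF1 stood at -0.043 (-0.082 to -0.005) and BNIP2 at 0.017 (-0.035 to 0.069). The deposited TPM of BCLAF1 went the other way, from 83 to 88.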
